A study of Mus musculus with 10 samples.

Results

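The late phase of a reprogramming course was examined by comparing the 2 libraries of day 7 (D7) with the 2 libraries of day 3 (D3), 4 of the 10 libraries of the series. All libraries came from fibroblasts cultured from mouse embryos at E13.5, a mixed connective tissue population, at passage 2. Fathers carried an Oct4-GFP transgenic allele (CBA/CaJ × C57BL/6J) and mothers were 129S4/SvJaeJ. Every culture, D0 included, had been infected for 48 h with retroviruses for Jdp2, Sall4, Esrrb and Glis1. D7, D5, D3, D1 and D0 count the days that followed in iCD3 medium, and each day has 2 libraries. The series text speaks of 2 independent experiments; the labels do not tie replicate numbers to them, so the spread behind the p-values may be technical. Uninfected cells were not analysed here, and the sources used here do not give the share of cells that took up all 4 viruses.

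Reprogramming returns a differentiated cell to a state like that of the early embryo. In mouse fibroblasts, fibroblast genes are known to be shut off first, and the cell's own pluripotency genes, such as Nanog, Pou5f1 and Sox2, to come on later. Mouse pluripotent cells divide fast, use glycolysis and silence retroviral promoters. Polyadenylated RNA of whole cultures was measured, so fewer cells of a type and less RNA per cell cannot be told apart.

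The libraries held 4335931 and 1428598 estimated counts at D7, against 3303693 and 1365989 at D3 (replicate 1, then replicate 2, here and below). At these depths 3 counts stood for 0.692 and 2.10 CPM (counts scaled by library size) at D7, against 0.908 and 2.20 CPM at D3. D7 replicate 1 had the highest share of ribosomal RNA, 0.887%, where the remaining 9 libraries had 0.085% to 0.336%. Mitochondrial messenger RNAs took 3.12% and 3.27% at D7, against 3.09% and 5.36% at D3. Fragments averaged 136 to 159 bases in the replicate 1 libraries and 199 to 204 in those of replicate 2.

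Of 12752 genes tested, 1212 were called higher at D7 (9.50%) and 1139 lower (8.93%), 18.4% in all. A call is an adjusted p under 0.05 in edgeR's quasi-likelihood test with the replicate number as a term (Benjamini-Hochberg over all genes tested). The median log2 change over all genes tested was 0.02. Changes of at least 2-fold made up 1924 of the 2351 calls, 1064 higher and 860 lower, and both replicates moved the same way in 2346. D7 and D3 libraries did not overlap in 7199 of all 12752 genes tested (56.5%) and in 2320 of the 2351 calls. Separation of the libraries is therefore usual for a called gene. Without the replicate term 685 genes were called (5.37%; 391 higher, 3.07%; 294 lower, 2.31%), all of them among the 2351. The total was 741 without D7 replicate 1, 716 without D7 replicate 2, 779 without D3 replicate 1, 1222 without D3 replicate 2, 3685 without D5 replicate 1 and 3806 without D5 replicate 2. List counts moved too, and for list counts of 2 or more these values follow. A gene that missed the threshold is not shown to be at the same level on both days. Genes near 0 on D3 passed the filter on low counts only through other days, so their calls are only a description.

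**Figure D1:**
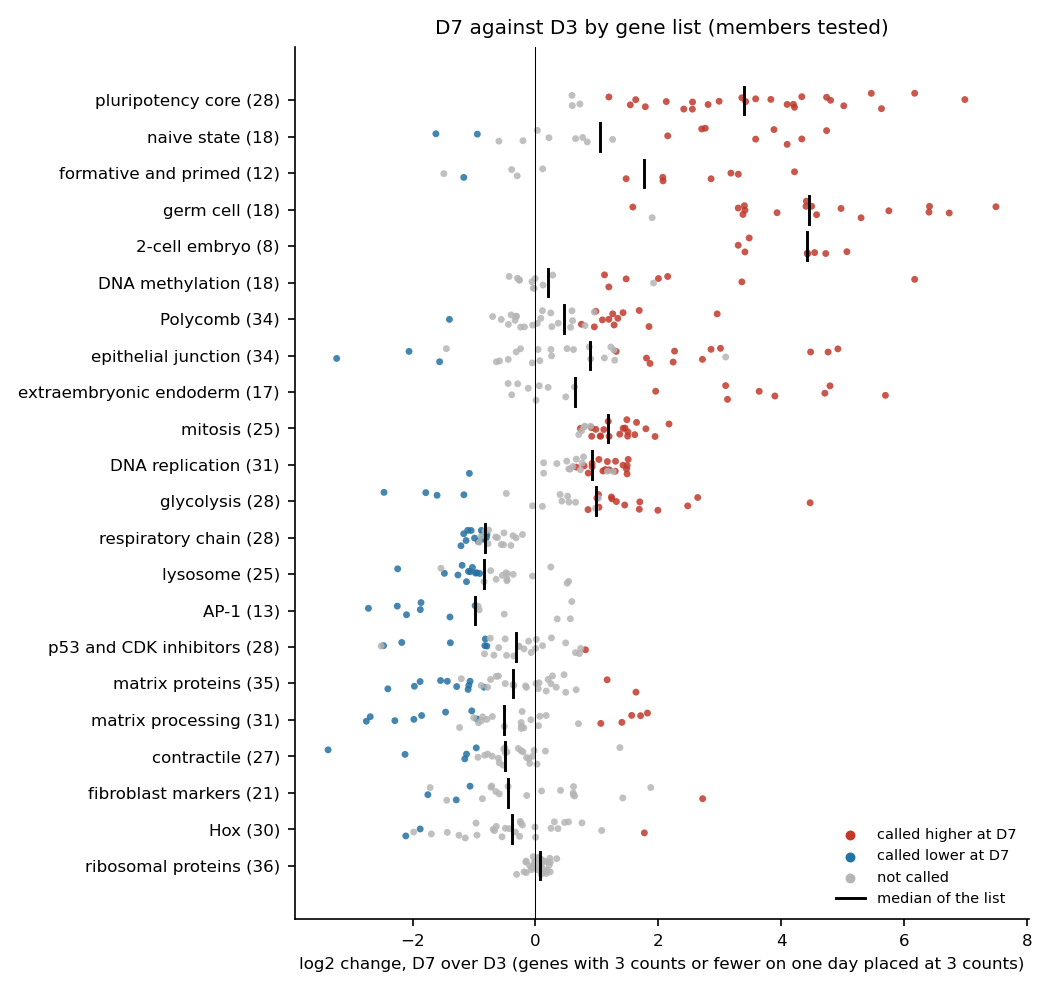
Log2 change of D7 over D3 (x axis) for the tested members of 22 gene lists, 1 point per gene; red points were called higher at D7, blue points lower, grey points were not called, and the black bar is the list median. Genes with 3 counts or fewer on one day are drawn at their 3-count bound. Medians of the pluripotency core, germ cell, mitosis and glycolysis lists lie right of 0, those of the respiratory chain, lysosome and AP-1 lists lie left of it, and none of the 36 ribosomal protein genes was called.

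All 4 delivered factors were lower at D7. Jdp2, a basic leucine zipper protein related to AP-1, had 337 and 173 CPM at D7, against 1503 and 892 CPM at D3 (log2 change -2.25, SE 0.33, adjusted p = 0.00111). Esrrb, a nuclear receptor without a known ligand, had 607 and 576 CPM at D7, against 1913 and 2886 CPM at D3 (log2 change -1.98, SE 0.27, adjusted p = 0.0008). Sall4, a zinc finger factor of the early embryo, had 754 and 744 CPM at D7, against 1612 and 3103 CPM at D3 (log2 change -1.59, SE 0.27, adjusted p = 0.00262). For these 3 genes each D7 library lay below each D3 library. Glis1, a zinc finger factor of the egg and zygote, had 42.9 and 70.3 CPM at D7, against 62.0 and 312 CPM at D3 (log2 change -1.38, SE 0.33, adjusted p = 0.0134), so D7 replicate 2 lay above D3 replicate 1 while each replicate fell on its own (log2 change -0.53 and -2.14). Calls were lost for Sall4 without D7 replicate 2 (adjusted p = 0.0577), for Glis1 without D7 replicate 2 (0.179), D3 replicate 2 (0.138) or the replicate term (0.194). Gene counts add up viral and endogenous transcripts, which cannot be told apart. The genes are Jdp2 (ENSMUSG00000034271, chromosome 12, 85599027 to 85639878, plus strand), Esrrb (ENSMUSG00000021255, chromosome 12, 86361117 to 86521628, plus strand), Sall4 (ENSMUSG00000027547, chromosome 2, 168748332 to 168767943, minus strand) and Glis1 (ENSMUSG00000034762, chromosome 4, 107434591 to 107635061, plus strand), with coordinates from GENCODE M21 on GRCm38, the assembly of mm10.

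Among 20 genes known to silence retroviruses in embryonic cells, 8 rose and none fell (median log2 change 0.72). Morc3, a nuclear ATPase, had 115 and 91.3 CPM at D7, against 36.9 and 34.3 CPM at D3 (log2 change 1.54, SE 0.34, adjusted p = 0.00932). Chaf1b, a subunit of chromatin assembly factor 1, had 70.0 and 58.5 CPM at D7, against 31.9 and 20.9 CPM at D3 (log2 change 1.26, SE 0.29, adjusted p = 0.0113). D7 and D3 libraries did not overlap for either gene. The count of 8 was 1 without D7 replicate 1, 0 without D7 replicate 2, 2 without D3 replicate 1, 2 without D3 replicate 2 and 1 without the replicate term. The threshold was missed for Morc3 without D7 replicate 2 (adjusted p = 0.0832), D3 replicate 1 (0.136) or the replicate term (0.0726), for Chaf1b without D7 replicate 1 (0.105), D7 replicate 2 (0.0589) or D3 replicate 2 (0.0807).

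Of 28 genes of the pluripotency core, 25 rose and none fell, with a median log2 change of 3.39. Dppa5a, an RNA-binding protein of pluripotent cells, had 358 and 310.1 CPM at D7, against 4.39 and 0 CPM at D3. Tdgf1, a Nodal co-receptor, had 174 and 89.4 CPM at D7, against 11.1 and 2.98 CPM at D3. Zfp42, a zinc finger marker of naive cells also named Rex1, had 104 and 55.9 CPM at D7, against 4.68 and 3.73 CPM at D3. In all 3 genes both D7 libraries were far above both D3 libraries. The log2 changes were 6.99 for Dppa5a (SE 0.52, adjusted p = 5.67e-05), 4.20 for Tdgf1 (SE 0.33, adjusted p = 0.000119) and 4.34 for Zfp42 (SE 0.39, adjusted p = 0.000105). Fbxo15, an F-box protein of undifferentiated cells, had 101 and 38.1 CPM at D7, against 4.39 and 0 CPM at D3 (log2 change 4.80, SE 0.48, adjusted p = 0.000171). Utf1, a chromatin factor of undifferentiated cells, had 87.7 and 80.8 CPM at D7, against 5.85 and 2.24 CPM at D3 (log2 change 4.22, SE 0.49, adjusted p = 0.000414), and Lin28a, which blocks the maturation of let-7 microRNAs, had 72.4 and 56.5 CPM at D7, against 12.3 and 3.73 CPM at D3 (log2 change 2.99, SE 0.41, adjusted p = 0.00109). The calls of these 6 genes held without each of the 10 libraries in turn. All 28 genes together reached 3193 and 2359 CPM at D7, against 765 and 414 CPM at D3. The count of 25 was 20 without D7 replicate 1, 19 without D7 replicate 2, 20 without D3 replicate 1, 21 without D3 replicate 2 and 15 without the replicate term. The first 3 genes are Dppa5a (ENSMUSG00000060461, chromosome 9, 78367052 to 78368177, minus strand), Tdgf1 (ENSMUSG00000032494, chromosome 9, 110939603 to 110946158, minus strand) and Zfp42 (ENSMUSG00000051176, chromosome 8, 43295063 to 43306980, minus strand).

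Core transcription factors moved by different amounts. Nanog, a homeobox factor, had 227 and 159 CPM at D7, against 53.3 and 10.4 CPM at D3. Pou5f1, which encodes Oct4, had 335 and 327 CPM at D7, against 137 and 30.6 CPM at D3. Sox2, the partner of Oct4 on DNA, had 208 and 142 CPM at D7, against 154 and 81.2 CPM at D3. D3 libraries already held all 3 messages; they lay below both D7 libraries for Nanog and Pou5f1, whereas for Sox2 D7 replicate 2 lay below D3 replicate 1. Nanog (log2 change 2.81, SE 0.46, adjusted p = 0.00208) and Pou5f1 (log2 change 2.13, SE 0.51, adjusted p = 0.0144) were called, while Sox2 missed the threshold (log2 change 0.59, SE 0.23, adjusted p = 0.0926). Refitting ended the call for Nanog without the replicate term (adjusted p = 0.0799), for Pou5f1 without D7 replicate 2 (0.112), D3 replicate 2 (0.117) or the replicate term (0.113). The difference between Sox2 and the other factors was not tested.

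**Figure D2:**
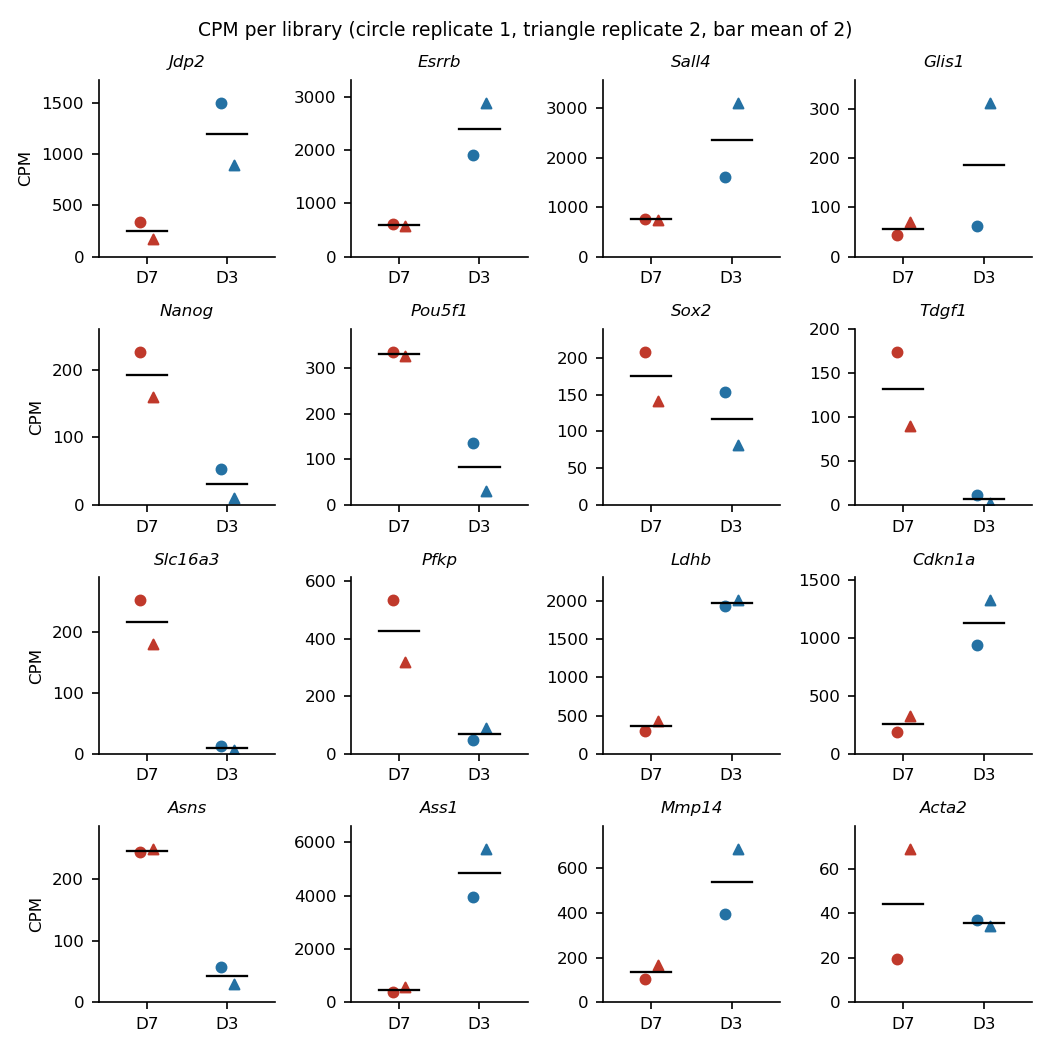
CPM in each D7 and D3 library (y axis, linear from 0) for 16 genes; circles are replicate 1, triangles replicate 2, and bars the mean of 2. The delivered factors, Ldhb, Cdkn1a, Ass1 and Mmp14 were called lower at D7, Nanog, Pou5f1, Tdgf1, Slc16a3, Pfkp and Asns were called higher, and Sox2 and Acta2 were not called.

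Genes of the naive state, the ground state of the early epiblast, moved in both directions. Of 18 tested, 8 rose and 2 fell (median log2 change 1.05). Klf2, a Kruppel-like factor, had 116 and 126 CPM at D7, against 22.2 and 13.4 CPM at D3 (log2 change 2.71, SE 0.33, adjusted p = 0.000497). Tfcp2l1, a target of LIF signalling, had 216 and 165 CPM at D7, against 41.0 and 18.6 CPM at D3 (log2 change 2.76, SE 0.36, adjusted p = 0.000705). Both D7 libraries were above both D3 libraries for each. The 2 falls were in the LIF pathway itself: Socs3, its feedback inhibitor, had 67.0 and 108 CPM at D7, against 206 and 333 CPM at D3 (log2 change -1.62, SE 0.22, adjusted p = 0.000802), and Stat3, its transducer, had 134 and 160.3 CPM at D7, against 226 and 352 CPM at D3 (log2 change -0.95, SE 0.22, adjusted p = 0.0125). Klf4 had 65.5 and 54.5 CPM at D7, against 33.9 and 33.5 CPM at D3 and missed the threshold (log2 change 0.84, SE 0.35, adjusted p = 0.113). The 8 rises were 5 without D7 replicate 1, 7 without D7 replicate 2, 6 without D3 replicate 1, 8 without D3 replicate 2 and 4 without the replicate term, and the 2 falls in that order 1, 1, 2, 1 and 1. Single calls did not hold for Stat3 without D7 replicate 1 (adjusted p = 0.0946), D7 replicate 2 (0.134), D3 replicate 2 (0.0796) or the replicate term (0.09).

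Formative and primed genes, which mark the later epiblast, gave 7 rises and 1 fall among 12 tested (median log2 change 1.77). The rises included Utf1, given above with the pluripotency core, and Dnmt3b, given below with DNA methylation genes, so lists share members. Lef1, a nuclear partner of beta-catenin, had 30.02 and 44.0 CPM at D7, against 6.73 and 11.2 CPM at D3 (log2 change 2.07, SE 0.34, adjusted p = 0.00235). Zic5, a zinc finger factor, had 24.1 and 15.8 CPM at D7, against 2.05 and 2.24 CPM at D3 (log2 change 3.30, SE 0.68, adjusted p = 0.00674). Neither gene's groups overlapped. Cd24a, a surface glycoprotein, moved the other way, with 179 and 205 CPM at D7, against 394 and 469 CPM at D3 (log2 change -1.17, SE 0.23, adjusted p = 0.00528). The 7 rises were 2 without D7 replicate 1, 5 without D7 replicate 2, 2 without D3 replicate 1, 6 without D3 replicate 2 and 5 without the replicate term. Among these genes, calls ended for Zic5 without D7 replicate 1 (adjusted p = 0.0648) or D3 replicate 1 (0.144), for Cd24a without D7 replicate 1 (0.0648) or D7 replicate 2 (0.0655).

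Germ cell genes that somatic cells hold silent through promoter DNA methylation were read next. The 38 listed genes summed to 819 and 568 CPM at D7, against 48.0 and 27.6 CPM at D3. Of these, 18 passed the filter on low counts and 17 of the 18 were called higher; 11 of the 18 had at most 3 counts on one day, so they passed through the day on which they were high and the count is only a description. Dazl, an RNA-binding protein of germ cells, had 136 and 47.3 CPM at D7, against 0 and 0 CPM at D3, which makes it at least 180.5-fold higher (floor of 3 counts over the 2 D3 libraries, adjusted p = 0.000356). Rhox5, an X-linked homeobox gene, had 90.9 and 63.7 CPM at D7, against 6.15 and 0.745 CPM at D3 (log2 change 4.40, SE 0.45, adjusted p = 0.000219). Trap1a, an X-linked tumour rejection antigen gene, had 53.5 and 53.2 CPM at D7, against 0.293 and 0 CPM at D3, a ratio of 254-fold (exact 95% counting interval 45.3 to 10076). All 3 were near 0 in the D3 libraries, and so was Rbmxl2, a retrogene for an RNA-binding protein of meiosis. Rbmxl2 had 55.5 and 48.6 CPM at D7, against 0.585 and 0.745 CPM at D3, a ratio of 85.3-fold (exact 95% counting interval 28.9 to 416). Bounds, ratios and intervals pool the counts of a day; they cover counting error alone, and PCR copies were not marked. D5 libraries already held 8.21 and 0 CPM of Dazl and 46.6 and 20.1 CPM of Rhox5. The count of 17 was 14 without D7 replicate 1, 15 without D7 replicate 2, 10 without D3 replicate 1, 16 without D3 replicate 2 and 13 without the replicate term. The first of these genes is Dazl (ENSMUSG00000010592, chromosome 17, 50279395 to 50293636, minus strand).

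Promoters of this list are shown for an E-box, CACGTG, a palindrome bound by MAX and MGA, partners of E2F6 in a Polycomb complex, and by other helix-loop-helix factors. RefSeq promoters (GRCm38.p6, 250 bases before to 50 after the start) matched 35 of the 38 genes by symbol, and 14 of them held CACGTG (40%), against 7.24% of 27025 genes with a promoter and 10.6% of those tested here. Not all promoters were eligible for printing. Among the eligible ones, the 3 called members with the lowest p and a match are printed 5′ to 3′. Each runs from 250 bases before to 30 after the start, with the E-box in capitals. Rbmxl2 is chr7:107209195-107209474 on the plus strand, Stag3 is chr5:138280259-138280538 on the plus strand and Ddx4 is chr13:112652281-112652560 on the minus strand.
Rbmxl2: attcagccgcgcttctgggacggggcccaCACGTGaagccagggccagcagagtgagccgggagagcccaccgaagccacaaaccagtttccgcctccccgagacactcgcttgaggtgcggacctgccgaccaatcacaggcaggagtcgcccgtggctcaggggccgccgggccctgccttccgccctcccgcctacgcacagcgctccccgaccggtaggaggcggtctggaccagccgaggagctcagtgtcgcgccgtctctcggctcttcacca
Stag3: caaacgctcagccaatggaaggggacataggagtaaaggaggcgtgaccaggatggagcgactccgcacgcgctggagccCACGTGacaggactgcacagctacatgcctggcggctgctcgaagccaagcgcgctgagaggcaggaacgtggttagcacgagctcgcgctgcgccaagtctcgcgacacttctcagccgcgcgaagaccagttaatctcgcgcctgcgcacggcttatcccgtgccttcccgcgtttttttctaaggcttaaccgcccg
Ddx4: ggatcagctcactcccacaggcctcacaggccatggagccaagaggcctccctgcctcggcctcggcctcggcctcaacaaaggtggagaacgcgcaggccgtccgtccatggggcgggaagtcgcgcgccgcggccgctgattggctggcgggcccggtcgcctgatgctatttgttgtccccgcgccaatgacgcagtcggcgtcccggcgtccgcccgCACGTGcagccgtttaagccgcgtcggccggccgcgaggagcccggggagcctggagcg
Stag3, a cohesin subunit of meiosis, had 28.3 and 21.7 CPM at D7, against 3.8 and 0.745 CPM at D3 (log2 change 3.38, SE 0.57, adjusted p = 0.00246). Ddx4, an RNA helicase of the germ line, had 11.1 and 5.91 CPM at D7, against 0.878 and 0.745 CPM at D3 (log2 change 3.40, SE 0.89, adjusted p = 0.0222). Both D7 libraries were above both D3 libraries in each. Adjusted p exceeded the threshold for Ddx4 without D7 replicate 2 (adjusted p = 0.12), D3 replicate 1 (0.293), D3 replicate 2 (0.0783) or the replicate term (0.0716). Letters in a window are a description and say nothing of what binds there.

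Genes of the 2-cell embryo, which a small share of mouse pluripotent cells switches on at any time, were present at low level. The 17 genes found in the files summed to 141 and 99.2 CPM at D7, against 3.51 and 0.745 CPM at D3. The filter kept 8, all called higher, of which 7 had at most 3 counts on one day, so this count too is only a description. Zscan4f, a zinc finger gene tied to telomere upkeep, had 28.5 and 15.1 CPM at D7, against 1.17 and 0 CPM at D3 (log2 change 5.07, SE 0.94, adjusted p = 0.00409). Gm4340 had 16.5 and 17.1 CPM at D7, against 0 and 0 CPM at D3, at least 26.4-fold higher (adjusted p = 0.00958). D3 libraries held at most a few counts of either gene. Zscan4 copies share reads, so single values are uncertain. The count of 8 was 2 without D7 replicate 1, 3 without D7 replicate 2, 0 without D3 replicate 1, 5 without D3 replicate 2 and 5 without the replicate term. Calls were lost for Zscan4f without D3 replicate 1 (adjusted p = 0.0764), for Gm4340 without D7 replicate 2 (0.0572) or D3 replicate 1 (0.135).

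**Figure D3:**
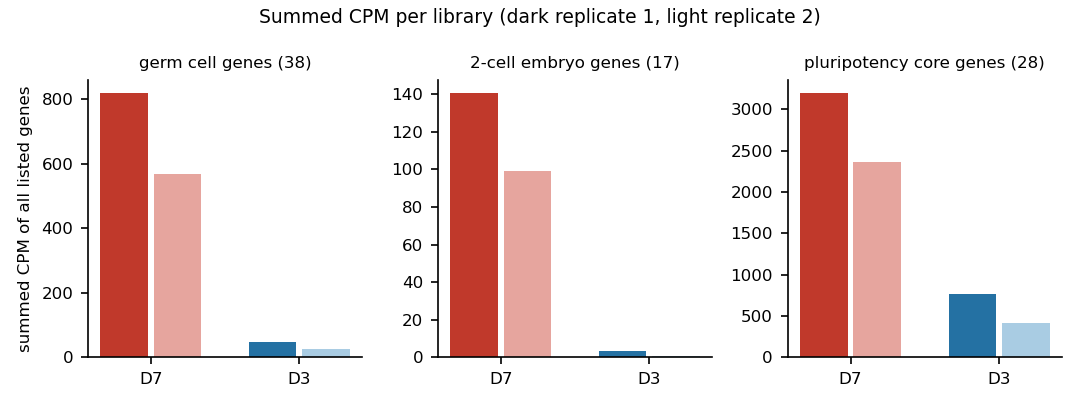
Summed CPM (y axis, linear from 0) of all listed germ cell, 2-cell embryo and pluripotency core genes found in the files, per library of D7 and D3; dark bars are replicate 1 and light bars replicate 2. In each panel both D7 libraries are above both D3 libraries.

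DNA methylation genes gave 7 rises and no fall among 18 tested (median log2 change 0.20), with writers and erasers among them. Dnmt3l, the cofactor of the de novo methyltransferases, had 71.3 and 36.1 CPM at D7, against 1.17 and 0 CPM at D3 (log2 change 6.17, SE 0.56, adjusted p = 0.000239). It was near 0 at D3 and passed the filter on low counts through other days, so its call is only a description. It overlaps Aire on the opposite strand, and the sources used here do not say whether counting used strand, so neither gene can be told apart from the other. Dnmt3b, a de novo methyltransferase, had 185 and 78.2 CPM at D7, against 53.6 and 37.3 CPM at D3 (log2 change 1.48, SE 0.31, adjusted p = 0.00755). Tet1, which oxidises methylated cytosine, had 190.3 and 120.2 CPM at D7, against 19.6 and 11.9 CPM at D3 (log2 change 3.36, SE 0.52, adjusted p = 0.00147). Both D7 libraries lay above both D3 libraries in all 3. The 7 rises were 2 without D7 replicate 1, 3 without D7 replicate 2, 3 without D3 replicate 1, 4 without D3 replicate 2 and 2 without the replicate term. The threshold was missed for Dnmt3b without D7 replicate 1 (adjusted p = 0.133), D3 replicate 1 (0.111) or the replicate term (0.0909).

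Of 34 Polycomb subunits, which repress developmental genes, 12 rose and 1 fell (median log2 change 0.47). Cbx7, a chromobox reader, had 72.7 and 48.6 CPM at D7, against 7.32 and 8.94 CPM at D3 (log2 change 2.96, SE 0.40, adjusted p = 0.000825). Ezh2, the methyltransferase for histone H3 lysine 27, had 148 and 118 CPM at D7, against 64.1 and 35.0 CPM at D3 (log2 change 1.43, SE 0.25, adjusted p = 0.00287). Mtf2, an accessory subunit, had 248 and 126 CPM at D7, against 74.0 and 41.0 CPM at D3 (log2 change 1.69, SE 0.28, adjusted p = 0.00236). All 3 had D7 libraries above D3 libraries. The 12 rises were 4 without D7 replicate 1, 4 without D7 replicate 2, 3 without D3 replicate 1, 8 without D3 replicate 2 and 3 without the replicate term. Refitting ended the call for Mtf2 without the replicate term (adjusted p = 0.104).

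Epithelial junction genes gave 11 rises and 3 falls among 34 tested (median log2 change 0.89). Epcam, an adhesion molecule of epithelia and pluripotent cells, had 141 and 104 CPM at D7, against 22.5 and 8.2 CPM at D3 (log2 change 3.01, SE 0.42, adjusted p = 0.000866). Elf3, an epithelial ETS factor, had 72.9 and 55.9 CPM at D7, against 3.8 and 0.745 CPM at D3 (log2 change 4.76, SE 0.54, adjusted p = 0.000387). Pkp2, a plakophilin of desmosomes, had 60.3 and 42.7 CPM at D7, against 15.8 and 12.7 CPM at D3 (log2 change 1.86, SE 0.29, adjusted p = 0.0016). D7 lay above D3 in every library pair of these genes. Cdh1, E-cadherin, had 202 and 160.3 CPM at D7, against 131 and 121 CPM at D3 and missed the threshold (log2 change 0.51, SE 0.22, adjusted p = 0.121). The 3 falls were Esrp2, an epithelial splicing regulator, with 9.79 and 5.91 CPM at D7, against 51.8 and 128 CPM at D3 (log2 change -3.24, SE 0.49, adjusted p = 0.00132), Jup, plakoglobin, with 147 and 145 CPM at D7, against 304 and 645 CPM at D3 (log2 change -1.56, SE 0.29, adjusted p = 0.00383), and Krt19, a keratin, with 42.6 and 65.7 CPM at D7, against 236 and 183 CPM at D3 (log2 change -2.06, SE 0.43, adjusted p = 0.00784). Esrp1, the paralogue of Esrp2, went the other way, with 17.0 and 5.26 CPM at D7, against 0.293 and 0 CPM at D3, a ratio of 66.9-fold (exact 95% counting interval 11.7 to 2672). Esrp1 passed the filter on low counts through other days, so its call is only a description. The 11 rises were 7 without D7 replicate 1, 8 without D7 replicate 2, 6 without D3 replicate 1, 9 without D3 replicate 2 and 8 without the replicate term, and the 3 falls in that order 2, 1, 2, 3 and 1. Single calls did not hold for Jup without D7 replicate 2 (adjusted p = 0.0707) or the replicate term (0.0621), for Krt19 without D7 replicate 1 (0.0745), D7 replicate 2 (0.0547), D3 replicate 1 (0.124) or the replicate term (0.0611), for Esrp1 without D7 replicate 1 (0.0557) or D3 replicate 1 (0.131).

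Mitosis genes were higher at D7 in 20 of 25 cases and lower in none (median log2 change 1.18). Aurkb, a kinase of the chromosomal passenger complex, had 75.5 and 81.5 CPM at D7, against 24.0 and 14.9 CPM at D3 (log2 change 1.95, SE 0.29, adjusted p = 0.00132). Bub1, a spindle checkpoint kinase, had 154 and 76.9 CPM at D7, against 35.4 and 15.6 CPM at D3 (log2 change 2.17, SE 0.36, adjusted p = 0.0021). Ccnb1, the mitotic cyclin B1, had 234 and 177 CPM at D7, against 89.5 and 56.6 CPM at D3 (log2 change 1.51, SE 0.27, adjusted p = 0.00318). D7 and D3 libraries were apart in all 3 genes. Kif20a, a kinesin of cytokinesis, had 191 and 145 CPM at D7, against 65.3 and 56.6 CPM at D3 (log2 change 1.46, SE 0.26, adjusted p = 0.00346). The 20 rises were 10 without D7 replicate 1, 5 without D7 replicate 2, 13 without D3 replicate 1, 6 without D3 replicate 2 and 4 without the replicate term. Among these genes, calls ended for Bub1 without the replicate term (adjusted p = 0.0612).

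The change between D7 and D3 was also set against the change between D3 and D0 in 1 model, a contrast in which the D3 libraries count in both phases. It called 6.84% of all genes tested higher and 9.13% lower. Of the 25 mitosis genes, 23 were called higher and none lower, a count that was 20 without D7 replicate 1, 17 without D7 replicate 2, 13 without D3 replicate 1, 6 without D3 replicate 2, 20 without D0 replicate 1, 16 without D0 replicate 2 and 4 without the replicate term. Aurkb, at 59.7 and 80.8 CPM on D0, had a late minus early log2 difference of 3.73 (SE 0.54, adjusted p = 0.000796). Mitosis genes stood lower on D3 than on either D0 or D7: their median in log2(CPM + 1) was 0.80 and 1.49 above D3 on D0 and 0.85 and 1.45 above it on D7.

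Promoters of mitosis genes are known for a cell cycle homology region, TTTGAA, and for CCAAT boxes. RefSeq promoters matched 21 of the 25 genes, and TTTGAA or its complement was in 15 (71.4%), against 18.1% of all 27025 promoters and 11.7% of those of tested genes. CCAAT, on either strand, was in 17 of the 21 (81%), against 37.9% of all and 39.4% of tested genes. Among 25 promoters of DNA replication genes 3 held TTTGAA (12%) and 16 held CCAAT (64%). Here too, not all promoters were eligible for printing, so a called gene with a lower p may be missing. Among the eligible ones, the 4 called mitosis genes with the lowest p and a TTTGAA match are printed 5′ to 3′. The window for both match and print ran from 150 bases before to 30 after the start. TTTGAA, or its complement where the match is on the other strand, is in capitals. Kif23 is chr9:61946770-61946949 on the minus strand, Ttk is chr9:83834539-83834718 on the plus strand, Kif11 is chr19:37376232-37376411 on the plus strand and Cenpf is chr1:189688057-189688236 on the minus strand.
Kif23: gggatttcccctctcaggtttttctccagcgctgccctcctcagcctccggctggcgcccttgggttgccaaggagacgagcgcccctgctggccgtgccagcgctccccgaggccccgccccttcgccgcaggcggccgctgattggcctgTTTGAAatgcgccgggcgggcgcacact
Ttk: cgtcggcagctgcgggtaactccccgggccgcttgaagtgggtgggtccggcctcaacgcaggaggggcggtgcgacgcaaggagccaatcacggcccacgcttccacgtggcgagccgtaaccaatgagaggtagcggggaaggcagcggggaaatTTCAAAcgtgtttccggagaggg
Kif11: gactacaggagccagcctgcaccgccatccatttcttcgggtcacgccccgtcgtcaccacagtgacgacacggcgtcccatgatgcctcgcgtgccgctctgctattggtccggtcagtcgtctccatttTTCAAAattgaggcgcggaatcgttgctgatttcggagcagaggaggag
Cenpf: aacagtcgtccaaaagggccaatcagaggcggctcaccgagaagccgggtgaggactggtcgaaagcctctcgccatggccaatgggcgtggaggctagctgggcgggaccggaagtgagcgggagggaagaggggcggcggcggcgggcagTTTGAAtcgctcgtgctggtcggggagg
Kif23, a kinesin of the central spindle, had 125 and 85.4 CPM at D7, against 51.5 and 23.1 CPM at D3 (log2 change 1.49, SE 0.29, adjusted p = 0.00512). Ttk, a checkpoint kinase, had 77.9 and 58.5 CPM at D7, against 33.4 and 11.2 CPM at D3 (log2 change 1.65, SE 0.34, adjusted p = 0.00716). Kif11, a kinesin that separates spindle poles, had 154 and 124 CPM at D7, against 64.4 and 35.8 CPM at D3 (log2 change 1.50, SE 0.31, adjusted p = 0.00738). Both D7 libraries lay above both D3 libraries in these genes and in Cenpf, a kinetochore protein, with 129 and 125 CPM at D7, against 50.9 and 26.1 CPM at D3 (log2 change 1.80, SE 0.39, adjusted p = 0.00851). Adjusted p exceeded the threshold for Kif23 without D7 replicate 1 (adjusted p = 0.0555) or the replicate term (0.054), for Ttk without D7 replicate 2 (0.0631), D3 replicate 2 (0.0544) or the replicate term (0.104), for Kif11 without D7 replicate 2 (0.0744), D3 replicate 1 (0.0589), D3 replicate 2 (0.0562) or the replicate term (0.088), for Cenpf without D7 replicate 2 (0.0952), D3 replicate 1 (0.0765), D3 replicate 2 (0.0621) or the replicate term (0.0963). These 4 genes and Stag3 are named because their promoters are printed.

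DNA replication genes gave 17 rises and 1 fall among 31 tested (median log2 change 0.92). Pold1, the catalytic subunit of polymerase delta, had 95.5 and 104 CPM at D7, against 39.5 and 28.3 CPM at D3 (log2 change 1.51, SE 0.28, adjusted p = 0.00388). Pola1, the catalytic subunit of polymerase alpha, had 95.9 and 67.0 CPM at D7, against 33.9 and 24.6 CPM at D3 (log2 change 1.48, SE 0.26, adjusted p = 0.0028). Groups were apart in both. The fall was Ccne1, cyclin E1, with 86.1 and 84.8 CPM at D7, against 209.5 and 151 CPM at D3 (log2 change -1.08, SE 0.25, adjusted p = 0.0115). The 17 rises were 4 without D7 replicate 1, 2 without D7 replicate 2, 6 without D3 replicate 1, 4 without D3 replicate 2 and 4 without the replicate term. Calls were lost for Pola1 without the replicate term (adjusted p = 0.0653), for Ccne1 without D7 replicate 1 (0.129), D7 replicate 2 (0.0772), D3 replicate 1 (0.115) or the replicate term (0.054).

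Among 28 p53 targets and inhibitors of cyclin-dependent kinases, 6 fell and 1 rose (median log2 change -0.31). Cdkn1a, the inhibitor p21, had 187 and 324 CPM at D7, against 939 and 1323 CPM at D3 (log2 change -2.18, SE 0.30, adjusted p = 0.000869). Cdkn1c, the imprinted inhibitor p57, had 336 and 332 CPM at D7, against 1839 and 1872 CPM at D3 (log2 change -2.47, SE 0.38, adjusted p = 0.00146). Both were lower in each D7 library than in each D3 library. The rise was Trp53 itself, with 246 and 216 CPM at D7, against 134 and 129 CPM at D3 (log2 change 0.81, SE 0.25, adjusted p = 0.0433). Cdkn2a, the Ink4a/Arf locus, missed the threshold (log2 change 0.72, SE 0.38, adjusted p = 0.218). The 6 falls were 2 without D7 replicate 1, 2 without D7 replicate 2, 2 without D3 replicate 1, 4 without D3 replicate 2 and 2 without the replicate term. The threshold was missed for Trp53 without D7 replicate 1 (adjusted p = 0.353), D7 replicate 2 (0.092), D3 replicate 1 (0.115), D3 replicate 2 (0.199) or the replicate term (0.141), and also without 4 of the 6 libraries of other days.

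Glycolysis genes gave 14 rises and 4 falls among 28 tested (median log2 change 0.99). Slc16a3, the lactate exporter MCT4, had 253 and 180.0 CPM at D7, against 12.3 and 5.96 CPM at D3 (log2 change 4.47, SE 0.33, adjusted p = 5.67e-05). Slc2a3, the glucose transporter GLUT3, had 1026 and 706 CPM at D7, against 263 and 173 CPM at D3 (log2 change 1.99, SE 0.27, adjusted p = 0.00085). Every D7 library was above every D3 library for both, as for the phosphofructokinase subunits Pfkl and Pfkp at the committed step. Pfkl had 423 and 369.9 CPM at D7, against 87.8 and 52.2 CPM at D3 (log2 change 2.48, SE 0.36, adjusted p = 0.00109), and Pfkp had 534 and 317 CPM at D7, against 49.5 and 90.9 CPM at D3 (log2 change 2.64, SE 0.39, adjusted p = 0.00114). The exporter gene is Slc16a3 (ENSMUSG00000025161, chromosome 11, 120948480 to 120960868, plus strand). The 14 rises were 6 without D7 replicate 1, 10 without D7 replicate 2, 10 without D3 replicate 1, 10 without D3 replicate 2 and 9 without the replicate term, and the 4 falls in that order 3, 2, 3, 2 and 3.

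The 4 falls of that list were Ldhb, Mpc2, Mpc1 and Pdk1. Ldhb, the lactate dehydrogenase subunit of oxidative tissues, had 295 and 432 CPM at D7, against 1929 and 2005 CPM at D3 (log2 change -2.47, SE 0.42, adjusted p = 0.00274). Mpc1 and Mpc2 form the mitochondrial pyruvate carrier; Mpc2 had 16.7 and 11.2 CPM at D7, against 48.3 and 50.7 CPM at D3 (log2 change -1.79, SE 0.32, adjusted p = 0.00318), and Mpc1 had 17.6 and 7.88 CPM at D7, against 37.2 and 46.2 CPM at D3 (log2 change -1.60, SE 0.37, adjusted p = 0.0117). Pdk1, a kinase that holds back pyruvate dehydrogenase, had 414 and 259.5 CPM at D7, against 873 and 619.9 CPM at D3 (log2 change -1.17, SE 0.26, adjusted p = 0.0104). In all 4 both D7 libraries lay below both D3 libraries. Refitting ended the call for Mpc1 without D7 replicate 2 (adjusted p = 0.114) or D3 replicate 2 (0.0669), for Pdk1 without D7 replicate 1 (0.0825), D7 replicate 2 (0.103), D3 replicate 1 (0.0511), D3 replicate 2 (0.0515) or the replicate term (0.12).

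Nuclear genes of the respiratory chain gave 14 falls and no rise among 28 tested (median log2 change -0.82). Ndufs1, a core subunit of complex I, had 117 and 80.8 CPM at D7, against 225 and 194 CPM at D3 (log2 change -1.10, SE 0.21, adjusted p = 0.00504). Ndufv1, its NADH-binding subunit, had 74.8 and 77.5 CPM at D7, against 174 and 157 CPM at D3 (log2 change -1.13, SE 0.27, adjusted p = 0.0133). Both D7 libraries lay below both D3 libraries in these genes. The 14 falls were 0 without D7 replicate 1, 0 without D7 replicate 2, 1 without D3 replicate 1, 6 without D3 replicate 2 and 0 without the replicate term, and the list's median change in log2(CPM + 1) was -0.91 in replicate 1 and -0.67 in replicate 2. Late minus early change was called lower for 16 of the 28, a count that was 5 without D7 replicate 1, 8 without D7 replicate 2, 1 without D3 replicate 1, 10 without D3 replicate 2, 11 without D0 replicate 1, 4 without D0 replicate 2 and 3 without the replicate term. Of 13 mitochondrially encoded messages 4 fell, among them mt-Cytb, cytochrome b, with 2963 and 3462 CPM at D7, against 4129 and 8680.0 CPM at D3 (log2 change -0.95, SE 0.31, adjusted p = 0.0489). Those 4 falls were 1 without D7 replicate 1, 0 without D7 replicate 2, 5 without D3 replicate 1, 0 without D3 replicate 2 and 0 without the replicate term. Single calls did not hold for Ndufs1 without D7 replicate 1 (adjusted p = 0.0599), D7 replicate 2 (0.0742) or the replicate term (0.0803), for Ndufv1 without D7 replicate 1 (0.0816), D7 replicate 2 (0.123), D3 replicate 1 (0.136) or the replicate term (0.0649), for mt-Cytb without D7 replicate 1 (0.193), D7 replicate 2 (0.262), D3 replicate 2 (0.369) or the replicate term (0.142), and also without 4 of the 6 libraries of other days.

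Lysosome genes gave 11 falls and no rise among 25 tested (median log2 change -0.84). Tfeb, a transcription factor that drives lysosome genes, had 16.3 and 28.3 CPM at D7, against 79.9 and 129.7 CPM at D3 (log2 change -2.24, SE 0.34, adjusted p = 0.00142). Gusb, a glucuronidase, had 35.0 and 51.9 CPM at D7, against 76.7 and 125 CPM at D3 (log2 change -1.19, SE 0.23, adjusted p = 0.0048). D7 libraries were below D3 libraries in both. The 11 falls were 2 without D7 replicate 1, 1 without D7 replicate 2, 4 without D3 replicate 1, 6 without D3 replicate 2 and 1 without the replicate term. Among these genes, calls ended for Gusb without D7 replicate 1 (adjusted p = 0.0512), D7 replicate 2 (0.0685) or the replicate term (0.112).

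**Figure D4:**
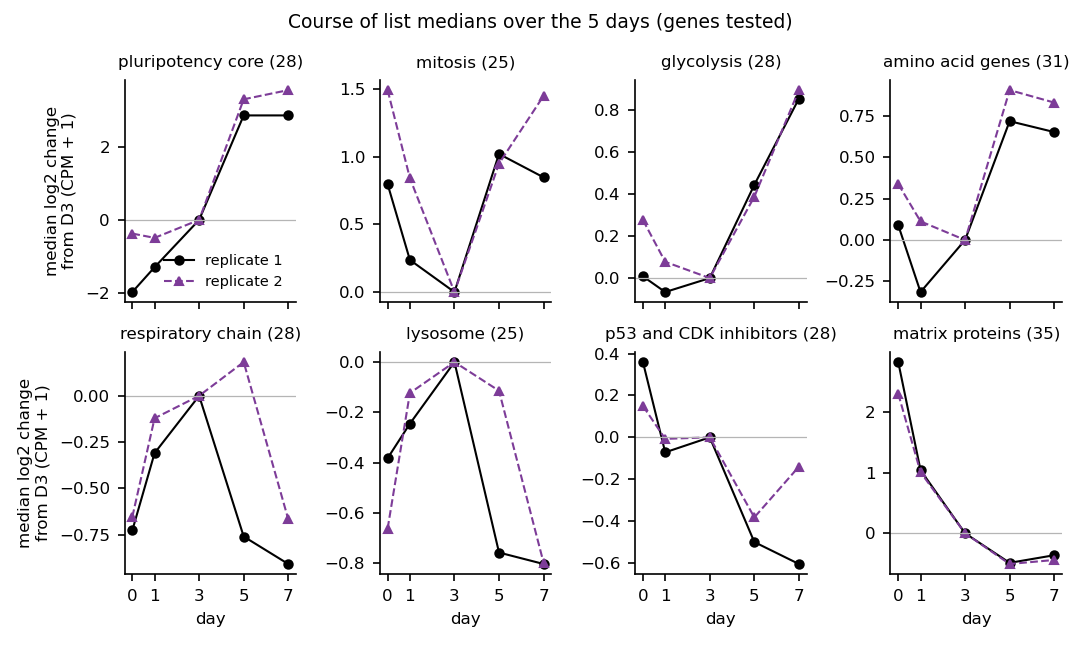
Median log2 change from D3 of the tested members of 8 lists (y axis, log2(CPM + 1)) against day (x axis); solid black lines are replicate 1 and dashed purple lines replicate 2. Mitosis genes are lowest at D3 and glycolysis genes highest at D7 in both replicates; respiratory chain genes lie below their D3 level at D7 in both replicates and differ between replicates at D5 (-0.76 and 0.18).

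Amino acid synthesis and stress genes gave 12 rises and 3 falls among 31 tested (median log2 change 0.76). Asns, asparagine synthetase and a target of ATF4, had 244 and 249 CPM at D7, against 57.4 and 29.8 CPM at D3 (log2 change 2.49, SE 0.29, adjusted p = 0.000398). Aldh18a1, which starts proline synthesis, had 94.8 and 96.6 CPM at D7, against 36.3 and 32.04 CPM at D3 (log2 change 1.48, SE 0.24, adjusted p = 0.00197). Amt, of the glycine cleavage system, had 41.8 and 43.4 CPM at D7, against 11.4 and 4.47 CPM at D3 (log2 change 2.31, SE 0.37, adjusted p = 0.002). The groups did not overlap in these genes. Ass1, argininosuccinate synthase, moved down, with 391 and 574 CPM at D7, against 3939.6 and 5752 CPM at D3 (log2 change -3.33, SE 0.33, adjusted p = 0.000153). D0 libraries held 449 and 469 CPM of Ass1, and its late minus early log2 difference was -6.69 (SE 0.50, adjusted p = 1.61e-05). The other falls were Tdh, threonine dehydrogenase, with 181 and 143 CPM at D7, against 348 and 258 CPM at D3 (log2 change -0.90, SE 0.29, adjusted p = 0.0479), and Sesn2, a stress-induced sestrin, with 66.6 and 91.3 CPM at D7, against 145 and 127 CPM at D3 (log2 change -0.82, SE 0.26, adjusted p = 0.0457). The 12 rises were 6 without D7 replicate 1, 7 without D7 replicate 2, 7 without D3 replicate 1, 7 without D3 replicate 2 and 7 without the replicate term, and the 3 falls in that order 1, 1, 1, 3 and 1. Adjusted p exceeded the threshold for Tdh without D7 replicate 1 (adjusted p = 0.268), D7 replicate 2 (0.197), D3 replicate 1 (0.174), D3 replicate 2 (0.14) or the replicate term (0.213), and also without 2 of the 6 libraries of other days, for Sesn2 without D7 replicate 1 (0.304), D7 replicate 2 (0.145), D3 replicate 1 (0.33) or the replicate term (0.162), and also without 4 of the 6 libraries of other days.

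AP-1 family genes other than Jdp2, which hold somatic enhancers active, gave 7 falls and no rise among 13 tested (median log2 change -0.98). Fos had 4.35 and 18.4 CPM at D7, against 41.6 and 90.2 CPM at D3 (log2 change -2.72, SE 0.44, adjusted p = 0.00197). Maf had 11.7 and 17.1 CPM at D7, against 55.9 and 79.7 CPM at D3 (log2 change -2.25, SE 0.35, adjusted p = 0.00149), and Junb had 30.2 and 69.7 CPM at D7, against 133 and 291 CPM at D3 (log2 change -2.10, SE 0.43, adjusted p = 0.00682). Both D7 libraries lay below both D3 libraries in each. The 7 falls were 3 without D7 replicate 1, 3 without D7 replicate 2, 3 without D3 replicate 1, 5 without D3 replicate 2 and 2 without the replicate term. Calls were lost for Junb without D7 replicate 1 (adjusted p = 0.0653), D7 replicate 2 (0.0522), D3 replicate 1 (0.0502) or the replicate term (0.111).

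Fibroblast markers gave 3 falls and 1 rise among 21 tested (median log2 change -0.44). These shares were 14.3% lower and 4.76% higher, against 8.93% and 9.50% of all genes tested. All 24 listed genes summed to 577 and 785 CPM at D7, against 864 and 1324 CPM at D3, while D0 libraries held 4771 and 5214 CPM. These 24 do not include Col1a1, Acta2, Prrx1, Twist1, Snai2 or Zeb1, which belong to other groups of genes. Col1a1, the main fibrillar collagen chain, had 108 and 228 CPM at D7, against 199.6 and 194 CPM at D3 (log2 change -0.35, SE 0.28, adjusted p = 0.412), with 3933 and 5530.2 CPM on D0. Acta2, smooth muscle actin, had 19.4 and 69.0 CPM at D7, against 36.9 and 34.3 CPM at D3 (log2 change -0.02, SE 0.45, adjusted p = 0.98), with 4578 and 4932 CPM on D0. D7 and D3 libraries overlapped for both, and neither was called. The sign of the Acta2 and Col1a1 changes turned without D3 replicate 1 (0.70 and 0.07). Thy1 (log2 change -0.86, SE 0.30, adjusted p = 0.0636), Postn (log2 change -0.72, SE 0.30, adjusted p = 0.11), Prrx1 (log2 change -0.62, SE 0.26, adjusted p = 0.118), Twist1 (log2 change 0.61, SE 0.30, adjusted p = 0.183), Snai2 (log2 change 1.13, SE 0.44, adjusted p = 0.0958) and Zeb1 (log2 change 0.07, SE 0.27, adjusted p = 0.883) were not called either. The 3 falls were Nt5e, Fbln2 and Eng. Their count was 1 without D7 replicate 1, 0 without D7 replicate 2, 3 without D3 replicate 1 and 1 without D3 replicate 2. It was 1 without the replicate term. Nt5e had 7.83 and 11.975 CPM on D0, against 81.9 and 64.1 CPM at D3 (log2 change D3 over D0 2.91, adjusted p = 0.000134). Its 28.3 and 14.5 CPM at D7 stayed above D0, so this fall followed an early rise. Eng had 325 and 329 CPM on D0 and 96.3 and 121 CPM at D3, so it fell in both phases.

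Some matrix and contractile genes did fall. Counts were 10 falls and 2 rises among 35 matrix proteins (median log2 change -0.36), 8 falls and 5 rises among 31 matrix-processing genes (-0.51), and 5 falls and no rise among 27 contractile genes (-0.50). Mmp14, a membrane-bound collagenase, had 104 and 165 CPM at D7, against 393 and 685 CPM at D3 (log2 change -1.98, SE 0.23, adjusted p = 0.000398). Loxl1, an elastin crosslinker, had 23.1 and 57.8 CPM at D7, against 155 and 359 CPM at D3 (log2 change -2.69, SE 0.41, adjusted p = 0.00137). Flnc, a filamin, had 106 and 226 CPM at D7, against 466 and 971 CPM at D3 (log2 change -2.12, SE 0.24, adjusted p = 0.000387). All 3 were lower in each D7 library than in each D3 library. P4ha1, a subunit of collagen prolyl hydroxylase, moved up, with 169.7 and 139 CPM at D7, against 68.5 and 37.3 CPM at D3 (log2 change 1.57, SE 0.28, adjusted p = 0.00328). The falls were 2 without D7 replicate 1, 2 without D7 replicate 2, 6 without D3 replicate 1, 5 without D3 replicate 2 and 2 without the replicate term for matrix proteins, 3 without D7 replicate 1, 3 without D7 replicate 2, 4 without D3 replicate 1, 5 without D3 replicate 2 and 2 without the replicate term for matrix processing, and 2 without D7 replicate 1, 2 without D7 replicate 2, 2 without D3 replicate 1, 4 without D3 replicate 2 and 2 without the replicate term for contractile genes. In that order, the 2 rises of matrix proteins were 1, 0, 0, 2 and 0, and the 5 rises of matrix processing 1, 4, 1, 4 and 2. Late minus early change was called higher for 21 of the matrix proteins, a count that was 17 without D7 replicate 1, 20 without D7 replicate 2, 8 without D3 replicate 1, 16 without D3 replicate 2, 17 without D0 replicate 1, 17 without D0 replicate 2 and 12 without the replicate term. The threshold was missed for Loxl1 without the replicate term (adjusted p = 0.0621), for P4ha1 without the replicate term (0.0522).

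Transcription factors of mesenchyme gave 5 falls and 1 rise among 27 tested (median log2 change -0.32). Tbx15, a T-box factor, had 5.0 and 10.5 CPM at D7, against 44.5 and 52.2 CPM at D3 (log2 change -2.77, SE 0.33, adjusted p = 0.000459). Foxc2, a forkhead factor, had 6.09 and 5.91 CPM at D7, against 46.5 and 60.4 CPM at D3 (log2 change -3.08, SE 0.39, adjusted p = 0.000622). Groups were apart in both. The 5 falls were 3 without D7 replicate 1, 4 without D7 replicate 2, 2 without D3 replicate 1, 4 without D3 replicate 2 and 2 without the replicate term.

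Nodal pathway genes gave 7 rises and 1 fall among 15 tested (median log2 change 1.48), and TGF-beta and BMP genes 8 falls and 2 rises among 30 (-0.36). Lefty2, a Nodal antagonist, had 43.7 and 38.1 CPM at D7, against 6.44 and 0 CPM at D3 (log2 change 3.55, SE 0.60, adjusted p = 0.00253). Smad3, a transducer of both ligands and a member of both lists, had 42.2 and 71.0 CPM at D7, against 15.2 and 25.3 CPM at D3 (log2 change 1.48, SE 0.28, adjusted p = 0.00439). Pmepa1, a feedback inhibitor of TGF-beta signalling, had 13.49 and 16.4 CPM at D7, against 52.97 and 66.3 CPM at D3 (log2 change -1.97, SE 0.31, adjusted p = 0.00185). No group overlap occurred in these genes. The Nodal rises were 4 without D7 replicate 1, 3 without D7 replicate 2, 3 without D3 replicate 1, 4 without D3 replicate 2 and 5 without the replicate term, and the TGF-beta and BMP falls were 2 without D7 replicate 1, 3 without D7 replicate 2, 5 without D3 replicate 1, 5 without D3 replicate 2 and 2 without the replicate term. The 2 TGF-beta and BMP rises were in that order 1, 0, 0, 2 and 0. Refitting ended the call for Smad3 without D7 replicate 2 (adjusted p = 0.0525), D3 replicate 1 (0.0559) or the replicate term (0.0619).

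FGF and LIF pathway genes were called in both directions. Among 20 FGF genes 4 rose and 4 fell (median log2 change -0.20), and among 16 LIF genes 2 rose and 4 fell (0.16). Fgf4, the ligand of the epiblast, had 40.2 and 35.5 CPM at D7, against 1.17 and 0 CPM at D3 (log2 change 5.63, SE 0.64, adjusted p = 0.000673). Spry4, a feedback inhibitor of the pathway, had 36.5 and 28.9 CPM at D7, against 82.5 and 104 CPM at D3 (log2 change -1.48, SE 0.26, adjusted p = 0.00291), and Egr1, an immediate early target, had 12.6 and 61.8 CPM at D7, against 96.0 and 203 CPM at D3 (log2 change -2.25, SE 0.39, adjusted p = 0.00288). Fgf4 was nearly absent at D3 and passed the filter on low counts through other days, so its call is only a description. Spry4 and Egr1 were lower in both D7 libraries than in both D3 libraries. Pim1, a kinase induced by LIF, had 48.7 and 109 CPM at D7, against 10.2 and 23.1 CPM at D3 (log2 change 2.25, SE 0.37, adjusted p = 0.00206). Ccnd1, cyclin D1, had 88.5 and 152 CPM at D7, against 367 and 391 CPM at D3 (log2 change -1.72, SE 0.26, adjusted p = 0.00132). Single calls did not hold for Egr1 without the replicate term (adjusted p = 0.14), for Pim1 without the replicate term (0.0502). FGF rises were 1 without D7 replicate 1, 1 without D7 replicate 2, 1 without D3 replicate 1, 2 without D3 replicate 2 and 1 without the replicate term, and FGF falls were 3 without D7 replicate 1, 2 without D7 replicate 2, 2 without D3 replicate 1, 3 without D3 replicate 2 and 2 without the replicate term. LIF falls were 1 without D7 replicate 1, 1 without D7 replicate 2, 2 without D3 replicate 1, 2 without D3 replicate 2 and 1 without the replicate term, and LIF rises in that order 2, 2, 2, 2 and 1.

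Markers of cell types that a mixed culture could hold were read as lists. Extraembryonic endoderm markers gave 8 rises and no fall among 17 tested (median log2 change 0.64). All 22 listed genes summed to 2932 and 1777 CPM at D7, against 1467 and 1893 CPM at D3. The D0 libraries held more, 4949 and 5300 CPM, so the sum is not particular to endoderm. Gata4, a zinc finger factor of endoderm, had 28.9 and 21.0 CPM at D7, against 1.76 and 1.49 CPM at D3 (log2 change 3.90, SE 0.58, adjusted p = 0.00123). Lama1, a laminin of basement membranes, had 423 and 201 CPM at D7, against 35.4 and 35.0 CPM at D3 (log2 change 3.10, SE 0.42, adjusted p = 0.000811). Both D7 libraries were above both D3 libraries for Gata4 and Lama1, whereas the summed markers were lower at D7 in replicate 2. Sox17, a defining endoderm factor, had 16.1 and 17.7 CPM at D7, against 0.585 and 0 CPM at D3, a ratio of 39.3-fold (exact 95% counting interval 10.6 to 329). Sox17 passed the filter on low counts through other days, so its call is only a description. The 8 rises were 3 without D7 replicate 1, 7 without D7 replicate 2, 2 without D3 replicate 1, 8 without D3 replicate 2 and 6 without the replicate term. Among these genes, calls ended for Sox17 without D3 replicate 1 (adjusted p = 0.0539).

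Endothelial markers gave 5 rises and 1 fall among 12 tested, and the 14 listed genes summed to 268 and 307 CPM at D7, against 226 and 237 CPM at D3. Pecam1, an adhesion molecule of endothelium and of mouse pluripotent cells, had 69.0 and 67.0 CPM at D7, against 1.46 and 2.98 CPM at D3 (log2 change 5.20, SE 0.58, adjusted p = 0.000335). Neural markers gave 2 rises and 1 fall among 7 tested and summed to 195 and 198 CPM at D7, against 209 and 179.6 CPM at D3 over 16 genes. Stmn2, a microtubule regulator of neurons, had 69.0 and 65.7 CPM at D7, against 12.6 and 3.73 CPM at D3 (log2 change 2.93, SE 0.40, adjusted p = 0.000829). Pecam1 and Stmn2 were far lower in both D3 libraries. The neural fall was Ncam1, with 35.2 and 38.8 CPM at D7, against 107 and 95.4 CPM at D3 (log2 change -1.46, SE 0.28, adjusted p = 0.00454). The endothelial fall was Eng (log2 change -1.06, SE 0.34, adjusted p = 0.0447), whose call was lost without the replicate term (adjusted p = 0.149). Macrophage markers summed to 25.9 and 26.9 CPM at D7, against 32.8 and 15.6 CPM at D3 over 14 genes, with none of 3 tested called, and erythroid markers to 4.35 and 2.63 CPM at D7, against 3.22 and 2.24 CPM at D3 over 8 genes, with none tested. Endothelial rises were 1 without D7 replicate 1, 2 without D7 replicate 2, 1 without D3 replicate 1, 3 without D3 replicate 2 and 1 without the replicate term, and neural rises were 1 without D7 replicate 1, 2 without D7 replicate 2, 2 without D3 replicate 1, 2 without D3 replicate 2 and 2 without the replicate term. The part of these cell types in the results above was not tested.

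Among called genes with a mean of at least 5 CPM over the 10 libraries, the 12 with the largest fitted rise were all at 0 counts in both D3 libraries. Their fitted sizes depend on the prior count, so folds are given as bounds from the floor of 3 counts. All 12 passed the filter on low counts through days on which they were high, so their calls are only a description. Dazl was one of them. Tcl1, a coactivator of AKT in pluripotent cells, had 14.4 and 24.3 CPM at D7, against 0 and 0 CPM at D3, at least 26.7-fold higher (adjusted p = 0.00253). Pnma5, an X-linked gene related to retrotransposon Gag, had 41.3 and 18.4 CPM at D7, against 0 and 0 CPM at D3, at least 56.5-fold higher (adjusted p = 0.000804). Xlr3c, an X-linked lymphocyte-regulated gene, had 27.8 and 18.4 CPM at D7, against 0 and 0 CPM at D3, at least 40.4-fold higher (adjusted p = 0.00166). The calls of these 3 genes held without each library. The others were Aire, uncertain because of Dnmt3l, and Gm48754, 2410141K09Rik, Gm49089, Gm10323, Gm5989, Zfp936 and Gm38226. Those 7 genes, Pnma5 and Xlr3c had estimated counts that were not whole in 2 to 7 of the 10 libraries, a sign of reads shared with other genes.

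At the same CPM minimum, the 12 largest falls included Rph3a, a synaptic vesicle protein, with 1.09 and 0.657 CPM at D7, against 34.2 and 24.6 CPM at D3 (log2 change -4.88, SE 0.62, adjusted p = 0.00065). Fndc5, the precursor of irisin, had 3.48 and 5.91 CPM at D7, against 107 and 57.4 CPM at D3 (log2 change -4.29, SE 0.58, adjusted p = 0.000793). Pcdh8, a protocadherin, had 2.61 and 3.94 CPM at D7, against 53.3 and 62.6 CPM at D3 (log2 change -4.20, SE 0.38, adjusted p = 0.000111). Each was low in both D7 libraries. Itih3, Msmp and Exoc3l4 had log2 changes of -4.12 (adjusted p = 0.00253), -4.04 (adjusted p = 0.00144) and -4.01 (adjusted p = 0.000825). The calls of these 6 genes held without each library, and those of the other 6, Gm5294, Nol4, Padi1, Ano5, Amh and Elfn1, were each lost without a D7 or D3 library. Ryr1, the calcium release channel of skeletal muscle, had 48.5 and 46.7 CPM at D7, against 334 and 432 CPM at D3 (log2 change -3.01, SE 0.26, adjusted p = 0.000101), with 3.42 and 2.99 CPM on D0. It was the only call among 4 muscle markers tested.

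Within the late phase, 421 genes were called between D5 and D3 (288 higher, 2.26%; 133 lower, 1.04%) and 20 between D7 and D5 (16 higher, 0.125%; 4 lower, 0.0314%). These counts do not test the steps against each other. Testing the D7 minus D5 change against the D5 minus D3 change called 7 genes (0.0549%), all lower, and 958 at an unadjusted p under 0.05. The direction was not the same in every setting: 36 were higher and 111 lower with no filter, and 6 higher and 13 lower with DESeq2. Replicates differed most on D5, with a chi-square per gene of 22.8, against 7.35 to 12.6 on other days. Dppa5a had 264 and 129 CPM on D5, with a log2 change of 6.14 (SE 0.51, adjusted p = 0.000414) between D5 and D3 and of 0.85 (SE 0.34, adjusted p = 0.383) between D7 and D5. Zfp42 had 93.2 and 35.6 CPM on D5, and its steps differed by -3.60 (SE 0.56, adjusted p = 0.0486). On D5 each replicate of both genes lay far above its own D3 level and below its own D7 level. The 7 calls became 0 without the replicate term or D7 replicate 2, 4 without D7 replicate 1, 2 without either D3 replicate, 273 without D5 replicate 1, 64 without D5 replicate 2 and 13 without D1 replicate 2.

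Some genes named here overlap another expressed gene, given in brackets, and without stated strand their counts are uncertain: Cbx7 (Apobec3), Ccnd1 (LTO1), Dnmt3l (Aire), Esrp2 (Nfatc3), Fbxo15 (Timm21), Foxc2 (Gm20388), Igf2 (Igf2os), Junb (Prdx2), Kif20a (Cdc23), Mest (Copg2), Msmp (Rgp1), Mtf2 (Tmed5), Ndufs1 (Eef1b2), Pfkp (Pitrm1), Stat3 (Stat5a). Estimated counts were not whole in at least 5 of the 10 libraries, a sign of shared reads, for Ccnd1, Cdkn1a, Dhcr7, Esrp2, Exoc3l4, Gm10288, Igf2, Igfbp4, Kif20a, Lef1, Mest, Mmp14, Mpc1, Msmp, Pfkp, Rpl30-ps9, Slc2a3, Zscan4f.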

How the data were processed

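Polyadenylated RNA was sequenced on a NextSeq 500. Bcl2fastq, Bowtie2, RSEM and build mm10 are named in the submitters' processing notes; the sources used here give neither versions nor strand, and the labels name a pair of library kits without saying which library had which. Per the file headers, each library's deposited file gives RSEM expected counts, TPM and FPKM per gene; FPKM were not used. Counts were rounded to integers, and 54723 of 54752 gene IDs were named from GENCODE M21. Counts were filtered (filterByExpr, minimum 10), scaled by TMM and tested with edgeR 4.0.16 (R 4.3.3, limma 3.58.1) in 1 model over all 10 libraries with day and replicate number as terms and 4 residual degrees of freedom; SE is the log2 change divided by the root of F. The replicate number stayed in the model because same-numbered libraries deviated together (correlations of 0.273 to 0.436 in every pair of days). Replicates differed by more than sampling noise (chi-square per gene of 7.35 to 22.8). The fit was tested on simulated counts. Alternatives were DESeq2 1.42.0, limma-voom, limma on log2(deposited TPM + 1), other scalings and filters, thinning, and leaving out libraries.

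Named genes were the delivered factors, a panel, the 12 largest rises and falls, up to 4 called members of each of 47 lists with the lowest p, members called against their list, and the largest differences between phases; Kif23, Ttk, Kif11, Cenpf and Stag3 were added with their promoters. Some genes that the rule named are not reported here. Members and lists were chosen with earlier results of these data known. Promoters were searched, on both strands, for 7 letter strings over 7 lists, and the 3 strings described above were chosen after the counts were seen.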

Additional observations from a re-analysis of the deposited data

Results flagged for a closer look

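A test of the difference itself picked out 7 genes whose change between D7 and D5 differed from their change between D5 and D3. The second step minus the first was -5.29 on the log2 scale for Dppa5a, -3.60 for Zfp42, -5.44 for Rbmxl2, -5.43 for Mylpf, -4.10 for Gm37697, -5.35 for Gm10288 and -13.85 for Rpl30-ps9. Mylpf, a myosin light chain of fast skeletal muscle, had 8.78 and 0 CPM on D3, 172 and 102 CPM on D5 and 117 and 63.7 CPM on D7, so D5 was the highest day in both replicates. Rbmxl2 had 45.7 and 30.9 CPM on D5, between its D3 and D7 levels. Gm10288 had 97.1 and 44.1 CPM on D5 and Rpl30-ps9 0.242 and 69.6 CPM; their estimated counts were not whole in 10 and 6 of the 10 libraries, so reads were shared with other genes.

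The largest differences between the late change (D7 minus D3) and the early change (D3 minus D0) were also picked out, 5 in each direction. Downward they were -13.52 for C1ql2, -13.14 for Gm5294, -13.00 for Kcna2, -12.87 for Kcnj12 and -12.53 for Nrgn. All 5 were at 0 counts in both D0 libraries, so these sizes depend on the prior count and are no bounds. Kcnj12, an inward rectifier potassium channel, had 28.9 and 34.9 CPM on D1, 43.9 and 64.8 CPM on D3, 13.0 and 26.3 CPM on D5 and 5.44 and 9.86 CPM on D7. Kcna2, a voltage-gated potassium channel, had 19.5 and 34.2 CPM, 63.8 and 126 CPM, 37.4 and 16.2 CPM and 21.5 and 17.1 CPM on the same days. C1ql2, a secreted C1q-like protein, had 17.6 and 19.2 CPM, 48.0 and 96.1 CPM, 11.6 and 60.3 CPM and 5.66 and 9.86 CPM. Each of these 3 genes was highest on D3 in both replicates. Nrgn, a calmodulin-binding protein of neurons, had 23.4 and 52.9 CPM on D3 and 3.26 and 5.26 CPM on D7.

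Upward they were 19.66 for Gm48754, 16.68 for Hsp25-ps1, 13.71 for Gm5989, 12.85 for Gm49089 and 12.45 for Gm38226. All 5 were at 0 counts in both D3 libraries, so these sizes are no bounds either, and all had shared reads in 3 to 7 libraries. Hsp25-ps1 had 0 and 50.6 CPM on D7, all of it in 1 library, and was not called between D7 and D3 (adjusted p = 0.0714).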

How the results depend on the processing

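The 2351 calls between D7 and D3 stayed within 1.5 times under RLE scaling (2329), upper-quartile scaling (2273), no filter (2835), a stricter filter (2016), DESeq2 (1843), limma-voom (2989), thinning (2041) and a fit of the 4 D7 and D3 libraries with the replicate block (3231). They were 685 with no replicate block, 1309 with those 4 libraries and no block, 1248 on TPM, and 716 to 3806 without single libraries. The pairing check is given with the processing. The 7 genes with unequal late steps became 0 with no replicate block (447 at an unadjusted p under 0.05), 147 with no filter, 19 with DESeq2, 11 with limma-voom, 0 on TPM (862 unadjusted), 4 with thinning, and 0 to 273 without single libraries. The 2036 genes whose late and early changes differed became 778 with no replicate block, 1308 on TPM, and 675 to 3304 without single libraries. The cause was not tested. On TPM the median log2 change of all genes was 0.13 for D7 against D3, 0.22 for the unequal steps and 0.25 for late against early.

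Of all 2351 calls, 685 held with no replicate block. The rule took named genes partly for low p or large change in these same data, so the counts below describe these genes alone. Of 225 genes that the rule named, 209 were called and none of these changed sign under any alternative run. Calls held without each library for 89, with no replicate block for 116, on RLE for 206, with limma-voom for 208, with DESeq2 for 184, on TPM for 156 and with thinning for 197. Among the named genes, sign changes were confined to 4 that were not called. Acta2 (-0.02 as reported) had 0.26 with no replicate block, 0.24 with 4 libraries and no block, 0.023 with upper-quartile scaling, 0.0042 with a stricter filter, 0.0030 with DESeq2, 0.17 on TPM, 0.052 with thinning, and -0.59 to 0.70 without single libraries, above 0 without D3 replicate 1 (0.70), D7 replicate 1 (0.51), D5 replicate 1 (0.012) or D5 replicate 2 (0.0040). Without single libraries Col1a1 had -0.73 to 0.073, Zeb1 -0.18 to 0.28 (both turned without D3 replicate 1) and Rpl30-ps9 -6.71 to 3.67 (turned without D7 replicate 2). Depth limits genes near 3 counts, 0.692 to 2.26 CPM by raw library totals.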

Other observations

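Imprinted genes, expressed from 1 parental copy, gave 6 rises and 3 falls among 23 tested (median log2 change 0.41). Mest, a paternally expressed hydrolase gene, had 419 and 560.5 CPM at D7, against 76.4 and 75.3 CPM at D3 (log2 change 2.69, SE 0.28, adjusted p = 0.000239). Igf2, the growth factor, had 1065 and 2275 CPM at D7, against 2706 and 3752 CPM at D3 (log2 change -1.03, SE 0.27, adjusted p = 0.0225), and calls were lost for Igf2 without D7 replicate 1 (adjusted p = 0.233), D7 replicate 2 (0.0749), D3 replicate 1 (0.127) or the replicate term (0.249). The 6 rises were 5 without D7 replicate 1, 1 without D7 replicate 2, 1 without D3 replicate 1, 1 without D3 replicate 2 and 1 without the replicate term, and the 3 falls in that order 1, 1, 2, 3 and 1. Primitive streak and posterior genes gave 4 rises and 1 fall among 13 tested. Cdx1, a caudal homeobox factor, had 60.5 and 44.0 CPM at D7, against 12.6 and 2.98 CPM at D3 (log2 change 2.63, SE 0.41, adjusted p = 0.00203), and Mixl1, a homeobox factor of the streak, had 4.35 and 3.94 CPM at D7, against 17.9 and 22.4 CPM at D3 (log2 change -2.18, SE 0.44, adjusted p = 0.00694). The groups were apart in both genes. Calls were lost for Mixl1 without D7 replicate 1 (adjusted p = 0.0522), D7 replicate 2 (0.0636) or D3 replicate 1 (0.0618). The 4 rises were 1 without D7 replicate 1, 2 without D7 replicate 2, 2 without D3 replicate 1, 2 without D3 replicate 2 and 1 without the replicate term.

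Secreted inflammatory and growth factor-binding genes gave 1 rise and 4 falls among 17 tested (median log2 change -0.75). Cxcl12, a chemokine, had 37.9 and 102 CPM at D7, against 12 and 22.4 CPM at D3 (log2 change 1.95, SE 0.31, adjusted p = 0.00188). Igfbp4, a binding protein of insulin-like growth factors, had 1094 and 1269 CPM at D7, against 3499 and 3874 CPM at D3 (log2 change -1.65, SE 0.29, adjusted p = 0.00291). D7 libraries were above D3 libraries for Cxcl12 and below them for Igfbp4. The 4 falls were 1 without D7 replicate 1, 3 without D7 replicate 2, 3 without D3 replicate 1, 2 without D3 replicate 2 and 2 without the replicate term. Cholesterol synthesis genes gave 2 rises among 25 and chaperones of the endoplasmic reticulum 1 rise and 2 falls among 20, shares near or below those of all genes tested (9.50% higher, 8.93% lower). Without D7 replicate 1, D7 replicate 2, D3 replicate 1, D3 replicate 2 or the replicate term, the 2 cholesterol rises were 1, 1, 1, 1 and 1, and the 2 chaperone falls 0, 0, 1, 0 and 0. Dhcr7, the last enzyme of cholesterol synthesis, had 121 and 109 CPM at D7, against 24.6 and 35.0 CPM at D3 (log2 change 2.01, SE 0.34, adjusted p = 0.00245), and Ero1l, an oxidase of the endoplasmic reticulum, had 239.7 and 147 CPM at D7, against 41.8 and 45.5 CPM at D3 (log2 change 2.13, SE 0.28, adjusted p = 0.000759). Tfap2c, a regulator of trophoblast and germ cells, had 44.4 and 36.1 CPM at D7, against 9.95 and 7.45 CPM at D3 (log2 change 2.21, SE 0.35, adjusted p = 0.00196) and was 1 of 2 rises among 11 trophoblast genes, which were 1, 1, 1, 1 and 1 in that order.

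Classes of genes by name or location were chosen after their values were seen; of all genes tested 9.50% were called higher and 8.93% lower. Among 447 tested genes of the X chromosome 72 were called higher (16.1%) and 26 lower; the 72 were 28 without D7 replicate 1, 26 without D7 replicate 2, 19 without D3 replicate 1, 41 without D3 replicate 2 and 28 without the replicate term. Genes named Zfp gave 37 rises (11.1%, near the share of all genes) and 8 falls (2.40%) among 334; the 37 were 21 without D7 replicate 1, 18 without D7 replicate 2, 10 without D3 replicate 1, 26 without D3 replicate 2 and 16 without the replicate term. Nuclear subunits named Nduf, Cox, Uqcr and Atp5 gave 1 rise and 29 falls (33.7%) among 86; the 29 were 0 without D7 replicate 1, 0 without D7 replicate 2, 1 without D3 replicate 1, 24 without D3 replicate 2 and 0 without the replicate term. Subunits of the vacuolar proton pump, named Atp6v, gave 7 falls (41.2%) among 17; the 7 were 0 without D7 replicate 1, 0 without D7 replicate 2, 0 without D3 replicate 1, 4 without D3 replicate 2 and 1 without the replicate term. Potassium channel genes named Kcn gave 6 falls (27.3%) among 22; the 6 were 5 without D7 replicate 1, 3 without D7 replicate 2, 4 without D3 replicate 1, 3 without D3 replicate 2 and 4 without the replicate term.

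Other strings searched in promoters gave smaller counts. TTTCCCGC, an E2F site, was in 6 of 25 promoters of DNA replication genes (24%), against 1.11% of all and 2.19% of tested genes. CACGTG was in 6 of 18 lysosome promoters (33.3%), and its extension TCACGTGA in 3 (16.7%), against 1.01% of all and 1.97% of tested genes. The full palindrome of the NRF1 site was in 2 of 20 respiratory chain promoters (10%), against 0.977% of all and 2.1% of tested genes; shortened to GCGCATGC after that count was seen, it was in 5 (25%), against 2.81% of all and 5.64% of tested genes. Germ cell promoters held the full palindrome in 4 of 35 (11.4%) and the short string in 9 (25.7%), a share like that of the respiratory chain list.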
